A study of Mus musculus with 16 samples.

Results

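Resting CD8 T cells were compared with resting CD4 T cells in mice whose T cells had lost GABPα, to ask how the lineages differ where GABP is missing. The samples were chosen by their labels: the 2 arrays of CD8 KO cells and the 2 arrays of CD4 KO cells taken at 0 h, 4 of the 16 arrays in the series. All 12393 genes that could be tested entered the comparison. Both groups were naive cells (CD25 negative, CD62L high and CD44 low) sorted by flow cytometry from the spleen and lymph nodes of CD4CreGabpaf/f (KO) mice on a C57BL/6 background, and neither was stimulated. Gabpaf/f littermates without the Cre served as wild type (WT) where possible, and 4 arrays of their cells at 0 h are used beside the KO arrays. In addition, 4 arrays of KO cells from the same sorts, activated through CD3 and CD28 for 18 h while IL-2 was supplied, are used at the end. The Cre transgene acts from the double-positive thymocyte stage onward, so both lineages carry the deletion. WT cells carry no Cre, and loss of Gabpa therefore cannot be told apart from an effect of the Cre itself. Mice of both sexes were used in the study, but the age and sex behind each array and any pooling of animals were not given in the sources used here. Replicates are labelled as biological, but no label ties them to an animal, so all p-values here reflect the variation among these arrays and no more, which may be technical.

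GABP is an Ets family transcription factor made of the DNA-binding subunit GABPα and a β subunit, and it is known for driving genes of mitochondria and of DNA replication. CD4 and CD8 T cells arise from a common thymocyte precursor. Zbtb7b (ThPOK) fixes the CD4 helper fate and Runx3 the CD8 cytotoxic fate, and each represses the program of the other. Naive T cells of either lineage rest outside the cell cycle and recirculate through lymphoid organs until they meet antigen.

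The surface markers matched the labels. Cd8a, which encodes the CD8 α chain, read 11.63 and 12.01 (log2 array value) in CD8 KO cells and 5.57 and 4.42 in CD4 KO cells. Cd8b1, the β chain, read 12.31 and 12.60 in CD8 KO and 8.05 and 7.39 in CD4 KO cells. Cd4 read 6.92 and 7.17 in CD4 KO and 5.43 and 4.78 in CD8 KO cells. No array overlapped with the other lineage for any of the 3 markers. As a gauge of absent transcripts, 18 genes of other organs (liver, heart, pancreas and the like) lay between 2.27 and 5.79 in the 4 KO arrays, with a median of 3.46. Cd8a in CD4 cells and Cd4 in CD8 cells both lay inside that range, whereas Cd8b1 in CD4 cells lay above it. Because Cd4, Cd8a and Cd8b1 were used for the sort, their differences check the labels and are no finding. Gabpa itself read 9.79 and 9.67 in CD4 KO and 9.18 and 9.45 in CD8 KO cells, and its difference (-0.42 ± 0.20, SE, n = 2 arrays per group) did not pass the test (limma adjusted p = 0.519). The position of its probe sets with respect to the deletion was not given in the sources used here, so they check nothing about the deletion. Gabpb1, the partner subunit, read 8.04 and 8.29 in CD4 KO and 8.01 and 8.06 in CD8 KO cells (adjusted p = 0.947). The arrays of both KO groups agreed well, with correlations across genes of 0.993 for the CD4 and 0.990 for the CD8 replicates. RNA integrity, read as the excess of 3' over 5' control probe sets, was 0.79 and 0.59 in CD4 KO and 0.80 and 1.11 in CD8 KO arrays (log2).

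**Figure D1:**
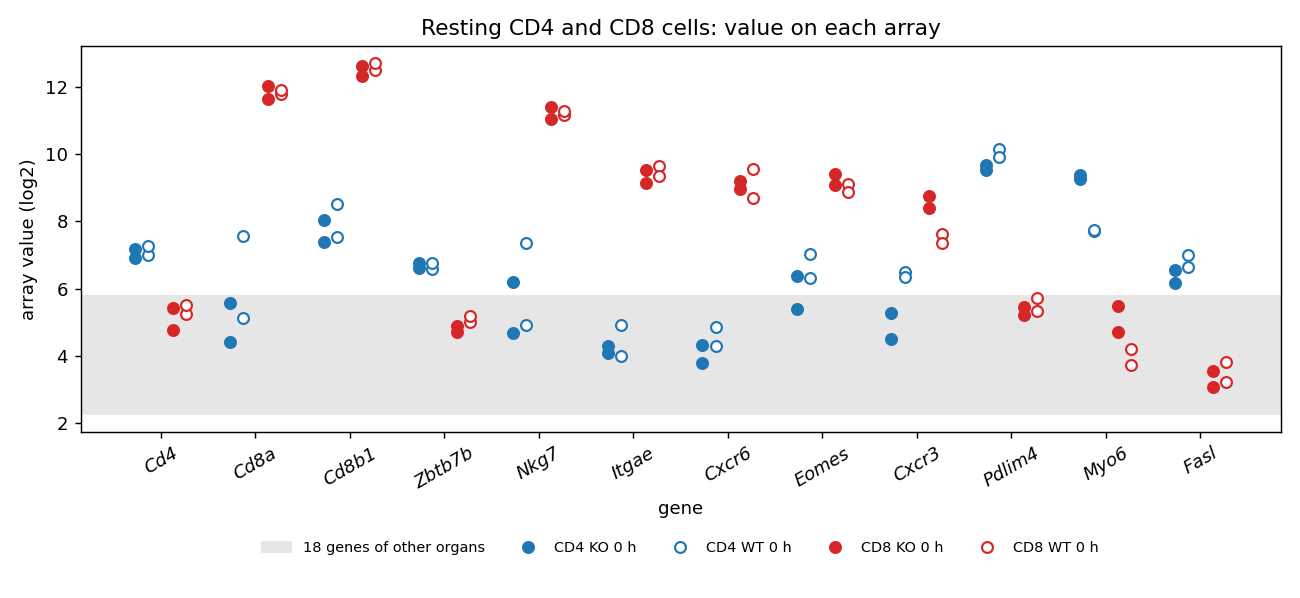
Array values (log2, vertical axis) of 12 genes (horizontal axis) in resting cells. Each point is 1 array, blue for CD4 and red for CD8 cells, filled for KO and open for WT, and the grey band spans 18 genes of other organs in the KO arrays (2.27 to 5.79). For each of the 12 genes the KO points of the lineages stand apart, as with Itgae at 9.51 and 9.14 in CD8 KO against 4.28 and 4.08 in CD4 KO cells.

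Of 12393 genes, 197 (1.59%) were higher and 89 (0.718%) lower in CD8 than in CD4 KO cells. A gene was called where limma's two-sided test, adjusted over all genes, gave p under 0.05 and the fold was over 1.5. The CD8 and CD4 arrays did not overlap for any of the 286 called genes, as for 40.9% of all genes. Of the 286, 96 had both arrays of 1 lineage at or below 5.79, the top of the range of the genes of other organs, and 31 had all 4 arrays there. The arrays carry no detection call here, so such low values may be background, and the difference may then understate the true one. The median difference was 1.38 (log2) among genes called higher and -1.35 among genes called lower, while the median over all genes was 0.04. A difference beyond 2 on this scale was seen for 40 genes called higher and 14 called lower. In these bulk samples, a transcript carried by fewer cells and one present at less RNA per cell cannot be told apart. The counts leaned on each of the 4 arrays: 82 and 34 genes were called higher and lower without CD4 KO replicate 1, 72 and 45 without CD4 KO replicate 2, 92 and 35 without CD8 KO replicate 1, and 70 and 50 without CD8 KO replicate 2. In all, 51 of the higher and 28 of the lower genes kept their call whichever of the 16 arrays was left out. Such genes are referred to below as kept. The spread was pooled over all 16 arrays, so arrays outside the comparison also mattered. Both counts rose when 1 array of CD8 KO 18 h, either of them, was left out. Tested against a fold of 1.5 instead of 0 (limma's treat), 41 genes were higher and 21 lower.

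Genes of the CD8 lineage made up the head of the list. Of 12 such genes, 10 were called higher in CD8 KO cells and 0 lower, and their median difference was 3.33. The sort markers Cd8a and Cd8b1 are among the 10 and count in this median. The largest after Cd8a was that of Nkg7, a protein of cytotoxic granules, which read 11.03 and 11.40 in CD8 KO and 6.21 and 4.69 in CD4 KO cells. It was higher by 5.77 ± 0.69 (limma adjusted p = 0.000613). Itgae, the αE integrin (CD103) that binds E-cadherin on epithelia, read 9.51 and 9.14 in CD8 KO and 4.28 and 4.08 in CD4 KO cells, a difference of 5.14 ± 0.39 (adjusted p = 2.1e-05). Both CD4 KO values of Itgae were in the range of the genes of other organs. Xcl1, a chemokine that attracts cross-presenting dendritic cells, differed by 3.42 ± 0.44, Klrd1, the CD94 chain of NK-type receptors, by 3.30 ± 0.62, and Eomes, a T-box factor of CD8 and memory cells, by 3.37 ± 0.61. Ctsw, a cathepsin of cytotoxic cells, was higher by 2.28 ± 0.19. Cd160 and Crtam, receptors of cytotoxic lymphocytes, were higher by 2.81 ± 0.21 and 2.26 ± 0.39. Of the 12 lineage genes, 2 did not pass. These were the factor Runx3, which read 5.43 and 5.33 in CD8 KO and 5.36 and 5.26 in CD4 KO cells, all inside the range of the genes of other organs, and the perforin gene Prf1 (0.72 ± 0.46, adjusted p = 0.724). Calls were kept for Cd8a, Cd8b1, Nkg7, Itgae, Xcl1, Ctsw and Cd160. Those of Klrd1 and Crtam were lost without any 1 of the 4 compared arrays, and that of Eomes was lost without CD4 KO replicate 2 or either CD8 KO array (range over these runs 2.87 to 3.86). The CD8 lineage genes were on average brighter in CD4 KO replicate 1 (6.29, mean log2) than in replicate 2 (5.82), against 9.43 and 9.46 in the CD8 KO arrays, and the part of this in the results was not tested.

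Other genes near the top lay outside the CD8 lineage list. Cxcr6, a chemokine receptor of tissue-homing T cells, read 8.96 and 9.19 in CD8 KO and 4.33 and 3.78 in CD4 KO cells (5.02 ± 0.71, adjusted p = 0.00215, kept), and its other probe set differed by 5.80 and was called. Both CD4 KO values lay in the range of the genes of other organs. Plac8, a small cysteine-rich protein, was very bright in CD8 KO cells (12.40 and 12.73) and also present in CD4 KO cells (8.87 and 8.34). It differed by 3.96 ± 0.84, a call lost without any 1 of the 4 compared arrays. Cst7, an inhibitor of cathepsins in cytotoxic cells, read 9.57 and 9.87 against 6.62 and 6.22 (3.30 ± 0.28, adjusted p = 5.1e-05). Spats2, an RNA-binding protein gene, read 8.46 and 9.12 in CD8 KO and 5.60 and 5.37 in CD4 KO cells (3.30 ± 0.30, adjusted p = 7.95e-05). The last 2 were kept, and both CD4 KO values of Spats2 lay in the range of the genes of other organs.

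Promoters of the called genes were searched for short motifs in windows from 250 bases before to 50 bases after the start of transcription (RefSeq, mouse build GRCm38.p6), on both strands. Windows were given for 159 of the 197 genes called higher, 67 of the 89 called lower and 9887 of all 12393 genes. The core of the Runx site, TGTGGT, was held by 20.1% of the 199 windows of genes called higher, 11.0% of the 91 windows of genes called lower and 13.2% of all 12566 windows. The site of GABP, CCGGAAGT, was held by 4.5%, 2.2% and 6.3% in the same order. These shares describe letters, not bound sites. The windows of Nkg7, Cxcr6 and Zbtb7b were picked as examples because they hold the Runx core, while the window of Cd8a does not hold it. The 250 bases before the start are printed 5' to 3' in the direction of transcription, and capitals mark each match, on either strand, to TGTGGT, to the CCAAT box or to the cell cycle element TTTGAA. Nkg7 lies at chr7:43436888-43437137 on the plus strand, Cxcr6 at chr9:123806227-123806476 on the plus strand and the Zbtb7b window that holds TGTGGT (its other window does not) at chr3:89387672-89387921 on the minus strand.
Nkg7: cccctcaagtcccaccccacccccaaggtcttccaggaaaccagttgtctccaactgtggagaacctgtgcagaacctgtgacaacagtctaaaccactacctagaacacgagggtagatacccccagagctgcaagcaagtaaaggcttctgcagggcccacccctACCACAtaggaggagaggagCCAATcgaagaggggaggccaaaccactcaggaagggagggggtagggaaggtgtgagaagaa
Cxcr6: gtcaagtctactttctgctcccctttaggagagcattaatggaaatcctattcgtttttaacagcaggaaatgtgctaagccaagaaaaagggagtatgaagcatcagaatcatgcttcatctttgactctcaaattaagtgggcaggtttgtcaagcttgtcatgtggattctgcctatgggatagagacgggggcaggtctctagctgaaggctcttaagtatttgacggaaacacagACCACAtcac
Zbtb7b: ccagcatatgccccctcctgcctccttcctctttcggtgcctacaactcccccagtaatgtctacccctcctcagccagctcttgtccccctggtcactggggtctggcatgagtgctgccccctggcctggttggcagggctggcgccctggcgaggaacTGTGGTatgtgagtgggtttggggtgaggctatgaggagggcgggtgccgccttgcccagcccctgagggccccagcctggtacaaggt
The Runx core stood in reverse complement at position -83 of Nkg7 and -10 of Cxcr6, and in sense at position -89 of this window of Zbtb7b, counted to the first base of the match with -1 as the last base before the start.

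On the CD4 side, 4 of 10 CD4 lineage genes were called lower in CD8 KO cells and 0 higher, with a median difference of -1.18. The sort marker Cd4 is among the 4 and counts in this median. Zbtb7b, the factor of the helper fate, read 6.62 and 6.76 in CD4 KO and 4.70 and 4.89 in CD8 KO cells. Its difference was -1.90 ± 0.18 (limma adjusted p = 9.57e-05, kept), although its dimmer probe set differed by -0.81 and did not pass. Cd5, a dampener of T cell receptor signals, read 11.20 and 11.13 against 9.69 and 10.09 (-1.28 ± 0.19, kept). Tnfrsf4 (OX40), a costimulatory receptor, differed by -1.61 ± 0.27, a call lost without CD4 KO replicate 1 or CD8 KO replicate 1. Among the members that did not pass, the helper factor Gata3 read 8.32 and 8.49 in CD4 KO and 7.02 and 6.89 in CD8 KO cells (-1.45 ± 0.44, adjusted p = 0.153). The arrays of the lineages did not overlap for Gata3, which was also so for 40.9% of all genes.

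The genes that fell most were not members of that list. Pdlim4, an actin-associated LIM protein gene, read 9.53 and 9.67 in CD4 KO and 5.20 and 5.45 in CD8 KO cells. At -4.27 ± 0.20 it had the smallest adjusted p of all genes (4.67e-07). Myo6, an unconventional myosin that moves toward the minus end of actin, read 9.37 and 9.25 against 4.71 and 5.49 (-4.21 ± 0.40). For both genes the CD8 KO values lay in the range of the genes of other organs. Fasl, the ligand of the death receptor Fas, is counted with cytotoxic genes and was nonetheless lower in CD8 KO cells, at 3.54 and 3.07 against 6.56 and 6.16 in CD4 KO cells (-3.05 ± 0.29, adjusted p = 9.57e-05). Its CD8 KO values also lay in the range of the genes of other organs. Among the other probe sets of these genes, those of Myo6 differed by -1.65 and -2.71 and that of Fasl by -1.36, and all 3 were called. Lgmn, a lysosomal endopeptidase, fell by 2.90 ± 0.24, the death domain receptor Tnfrsf25 by 2.86 ± 0.31 and the tetraspanin Tspan32 by 2.42 ± 0.21. Lrrc6, a leucine-rich repeat gene, read 6.62 and 5.86 in CD4 KO and 3.79 and 4.23 in CD8 KO cells (-2.23 ± 0.28, adjusted p = 0.000831). Chdh, of choline oxidation, differed by -2.33 ± 0.31, and the alcohol dehydrogenase Adh1 by -2.19 ± 0.20. Ptgir, the prostacyclin receptor, differed by -2.13 ± 0.26, and Chn2, a Rac GTPase activator, by -2.07 ± 0.21. All 11 of these calls were kept. Cd81, a tetraspanin of lymphocytes, differed by -2.20 ± 0.36, a call lost without CD4 KO replicate 1 or CD8 KO replicate 1.

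Of 34 transcription factors of the T cell lineages, 1 was called higher (Eomes) and 2 lower (Zbtb7b and Prdm1). Of all genes, 1.59% were called higher and 0.718% lower. Beside these shares, a count of 0 or 1 in this or another short list is no evidence about the list as a whole. The median difference of the 34 factors was -0.02, and their differences ran from -2.25 to 3.37. The arrays of the lineages did not overlap for 19 of the 34, against 40.9% of all genes. Prdm1, which encodes the repressor Blimp-1, read 5.14 and 4.74 in CD4 KO and 3.45 and 3.52 in CD8 KO cells (-1.45 ± 0.21, adjusted p = 0.00262, kept), all inside the range of the genes of other organs. Tbx21, the T-box factor T-bet, read 6.90 and 6.89 in CD8 KO and 4.23 and 3.24 in CD4 KO cells. This difference of 3.16 ± 0.85 did not pass (adjusted p = 0.0894). Runx1 read 8.34 and 8.58 in CD4 KO but 7.01 and 5.41 in CD8 KO cells, so that its difference of -2.25 came with an SE of 0.79 and an adjusted p of 0.262.

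Among receptors, changes ran in both directions. Of 28 costimulatory and inhibitory receptors, 3 were higher (Cd160, Cd7 and Crtam) and 4 lower in CD8 KO cells, the latter including Cd28, Cd200 and Tnfrsf4. Cd28, the main costimulatory receptor of T cells, read 10.32 and 10.54 in CD4 KO and 8.82 and 8.55 in CD8 KO cells (-1.74 ± 0.37, adjusted p = 0.0263). Cd7, an immunoglobulin family receptor, read 8.68 and 9.34 in CD8 KO and 6.43 and 6.39 in CD4 KO cells (2.60 ± 0.35). Without CD4 KO replicate 1 or CD8 KO replicate 1, 2 were higher and 1 lower, and Cd28 lost its call without any 1 of the 4 arrays. Of 30 homing receptors and integrins, 4 were higher and 1 lower. Besides Itgae and Cxcr6 these were Cxcr3, a chemokine receptor for interferon-induced ligands, at 8.40 and 8.74 in CD8 KO and 5.28 and 4.49 in CD4 KO cells (3.68 ± 0.32, adjusted p = 6.38e-05, kept), and Ccr9, the gut homing receptor, at 9.98 and 10.12 against 7.76 and 6.68 (2.83 ± 0.51, lost without CD4 KO replicate 2 or either CD8 KO array). The lower member was the α6 integrin Itga6 (-0.90 ± 0.15), a call lost without CD4 KO replicate 1 or 2 or CD8 KO replicate 1. Icam1, an adhesion ligand of lymphocytes, read 8.90 and 9.20 in CD8 KO and 7.85 and 7.38 in CD4 KO cells and did not pass (1.44 ± 0.36, adjusted p = 0.0639). Of 37 cytokine receptors and signal transducers, 3 were higher and 0 lower. They were Il2rb, the β chain of the IL-2 and IL-15 receptors (1.43 ± 0.28), Il18rap of the IL-18 receptor (1.73 ± 0.27) and Il12rb1 of the IL-12 receptor (1.05 ± 0.22). This count fell to 1 without CD4 KO replicate 1 or either CD8 KO array and to 0 without CD4 KO replicate 2. The largest difference that missed the test was that of Ifngr2, a chain of the interferon γ receptor, at 7.68 and 6.69 in CD4 KO and 5.74 and 5.63 in CD8 KO cells (-1.50 ± 0.48, adjusted p = 0.194). Of 34 genes of the T cell receptor complex and its signals, 1 was higher (Ptpn22, a phosphatase that restrains the receptor, 0.91 ± 0.21) and 1 lower (Cd5). The call of Ptpn22 was lost without any 1 of the 4 compared arrays. Leaving out any WT array of 0 h or either CD4 KO array of 18 h also lost it. The receptor component Cd3e differed by 0.05 ± 0.21. Cbl, a ubiquitin ligase that dampens the receptor, read 8.85 and 9.78 in CD4 KO and 9.56 and 6.77 in CD8 KO cells, so that the groups overlapped (adjusted p = 0.897).

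Genes that mark memory and effector T cells were higher in CD8 KO cells for 5 of 18 measured (Ahnak, Anxa2, Cxcr3, Eomes and Il2rb) and lower for 0, with a median of 0.75. Ahnak, a very large scaffold protein, read 7.73 and 7.72 in CD8 KO and 4.95 and 5.04 in CD4 KO cells (2.73 ± 0.19, adjusted p = 1.91e-05, kept), but its 3 other probe sets differed by 0.11 to 0.43 and did not pass. Its CD4 KO values lay in the range of the genes of other organs. On their other probe sets Eomes differed by 2.63, Il2rb by 0.81 and Anxa2 by 0.02 and 0.93, and none of these passed. Anxa2, a membrane-binding annexin, read 7.27 and 7.62 on the probe set used, against 5.75 and 5.25 (1.94 ± 0.43, adjusted p = 0.0327). This count was 3 without CD4 KO replicate 1 and 2 without any 1 of the other 3 compared arrays. Ccl5, a chemokine of memory cells, lay at 8.05 and 8.85 in CD8 KO cells but at 7.48 and 5.53 in CD4 KO cells, and did not pass (1.95 ± 0.66, adjusted p = 0.228). The list read 7.32 and 7.64 on average in CD8 KO and 6.67 and 6.09 in CD4 KO cells. Cd44, whose product was low by the sort, read 5.14 and 4.84 in CD8 KO and 5.73 and 5.58 in CD4 KO cells (adjusted p = 0.756). Of 15 naive T cell genes and Foxo1 targets, 0 were called in the limma fit, their median was -0.46 and 1 of 15 differed upward. The homing receptor Ccr7 differed by -0.23 ± 0.21 and the survival gene Bcl2 by -0.70 ± 0.45.

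**Figure D2:**
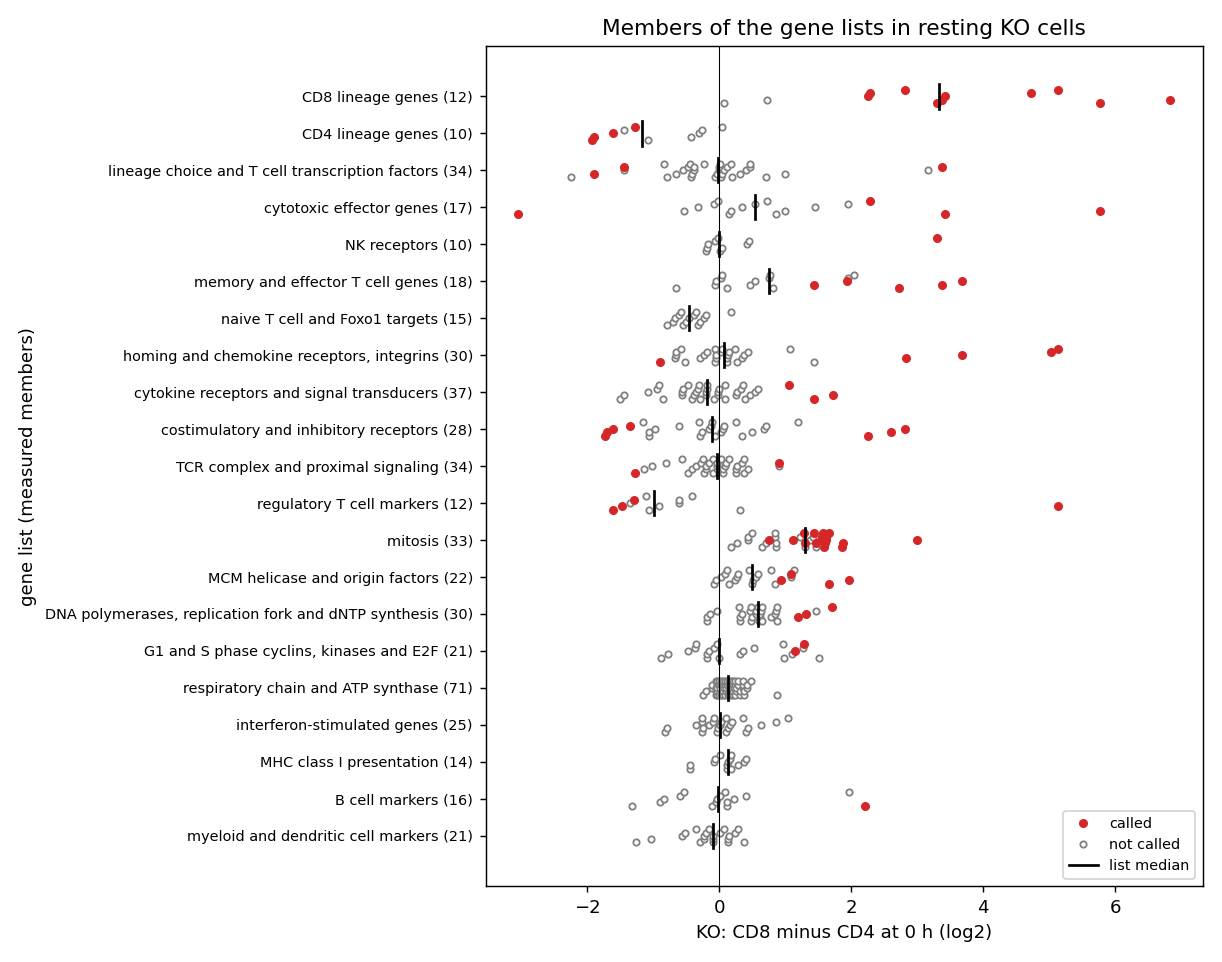
Difference of CD8 and CD4 KO cells at 0 h (log2, horizontal axis) for the measured members of 21 gene lists (vertical axis, with the number of members). Each point is a gene, red where called and open where not, and the black bars are list medians. The medians stand at 3.33 for CD8 lineage genes, 1.30 for mitosis and -1.18 for CD4 lineage genes, against 0.13 for the respiratory chain. The CD8 and CD4 lineage lists include the sort markers Cd8a, Cd8b1 and Cd4.

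Of 33 measured genes of mitosis, 17 were called higher in CD8 KO cells, 0 lower, and 16 did not pass. All 33 differences were above 0, and the median was 1.30. Both CD8 KO arrays lay above both CD4 KO arrays for 30 of the 33, as they did for 25.7% of all genes. Ccnb2, a cyclin that starts mitosis, read 7.22 and 7.32 in CD8 KO and 5.81 and 5.56 in CD4 KO cells (1.59 ± 0.18, limma adjusted p = 0.000399). Racgap1, a regulator of cytokinesis, read 7.72 and 7.64 against 4.67 and 4.71 (2.99 ± 0.19, adjusted p = 1.05e-05), the CD4 KO values being in the range of the genes of other organs. Kif23, the kinesin partner of Racgap1 in the centralspindlin complex, read 7.91 and 7.86 against 6.41 and 6.13 (1.62 ± 0.22). The calls of these 3 genes were kept. The spindle genes Tpx2 (1.88 ± 0.37) and Kif11 (1.86 ± 0.34), the survival and chromosomal passenger gene Birc5 (1.66 ± 0.37), the mitotic kinase Cdk1 (1.54 ± 0.28) and the proliferation marker Mki67 (1.60 ± 0.34) followed. Mki67 read 9.57 and 8.97 in CD8 KO and 7.80 and 7.54 in CD4 KO cells. Levels of the list as a whole were 6.79 and 6.67 (mean log2) in CD8 KO and 5.59 and 5.43 in CD4 KO cells. Members that did not pass ranged from Cenpa at 0.18 ± 0.21 to Ttk at 1.46 ± 0.36. The number called was 6 without CD4 KO replicate 1, 3 without CD4 KO replicate 2 and 5 without either CD8 KO array, with medians of 1.13 to 1.45 in these runs. With the 3 arrays of largest excess of 3' signal left out, among them CD8 KO replicate 2, it was 7. The 2 further probe sets of Kif11 differed by 1.21 and -0.07 and the other one of Tpx2 by 0.87, and none of the 3 was called. Among all named genes called in KO cells, 21 had 30 other probe sets, of which 10 were called and 1, of Kif11, had the opposite sign.

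**Figure D3:**
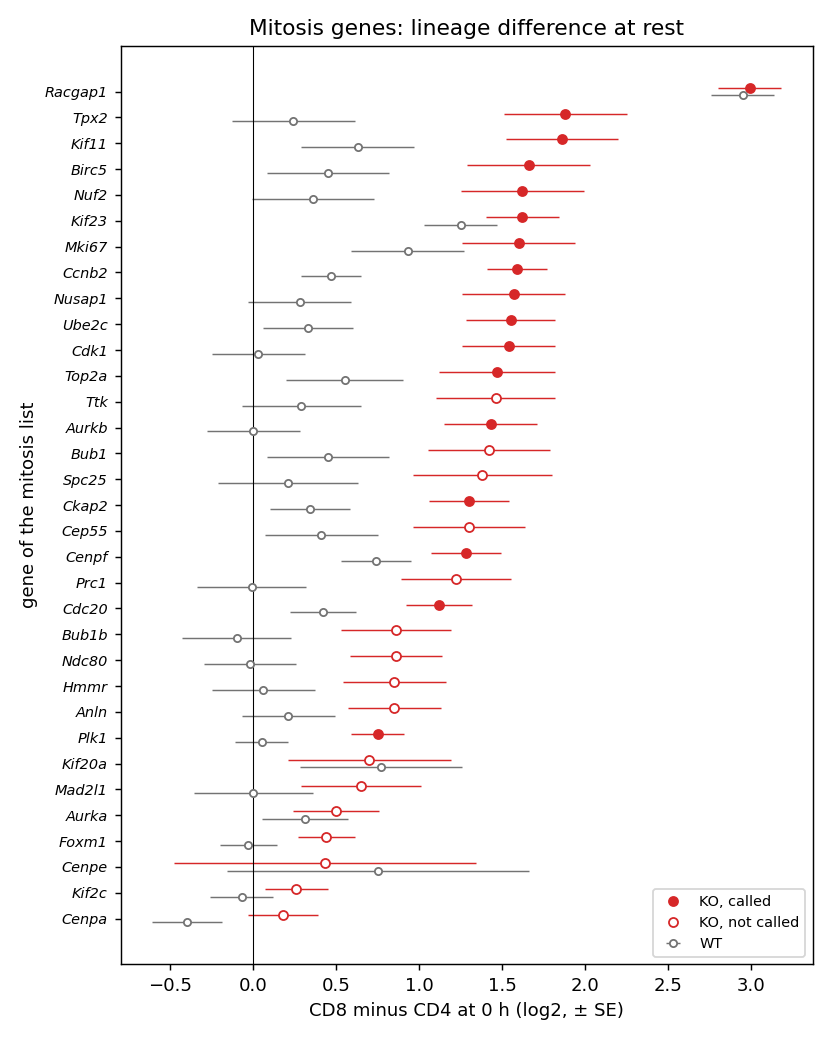
Difference of CD8 and CD4 cells at 0 h (log2 ± SE, horizontal axis) for the 33 measured mitosis genes (vertical axis), red for KO, filled where called, and grey for WT. All 33 KO points lie right of 0, and the KO point is right of the WT point for 31 genes, Cenpe and Kif20a being the exceptions.

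Promoters of mitosis genes were alike in motifs. The cell cycle homology region TTTGAA, a repressor element of genes of late cell cycle, was held by 80.6% of their 31 windows, against 12.9% of all windows. The CCAAT box was held by 71.0%, against 37.1%. Among windows of all genes called higher in CD8 KO cells the shares were 16.6% and 46.7%. This property belongs to the list and was not measured on the arrays. The GABP motif was held by 9.7% of these windows. The 250 bases before the start are shown for 3 called members, Ccnb2 (chr9:70421555-70421804, minus strand), Cdk1 (chr10:69352913-69353162, minus strand) and Ube2c (chr2:164769679-164769928, plus strand), with the same motifs in capitals; where copies overlap, their letters run together.
Ccnb2: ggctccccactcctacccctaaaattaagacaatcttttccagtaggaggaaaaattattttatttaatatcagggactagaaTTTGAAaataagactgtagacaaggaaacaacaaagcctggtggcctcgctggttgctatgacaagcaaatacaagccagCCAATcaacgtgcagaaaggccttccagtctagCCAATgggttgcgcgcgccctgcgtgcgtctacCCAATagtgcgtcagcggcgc
Cdk1: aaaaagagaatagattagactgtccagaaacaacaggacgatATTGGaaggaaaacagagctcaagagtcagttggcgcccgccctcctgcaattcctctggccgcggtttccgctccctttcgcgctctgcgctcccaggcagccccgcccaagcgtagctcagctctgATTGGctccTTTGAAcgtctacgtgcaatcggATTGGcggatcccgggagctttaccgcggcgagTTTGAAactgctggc
Ube2c: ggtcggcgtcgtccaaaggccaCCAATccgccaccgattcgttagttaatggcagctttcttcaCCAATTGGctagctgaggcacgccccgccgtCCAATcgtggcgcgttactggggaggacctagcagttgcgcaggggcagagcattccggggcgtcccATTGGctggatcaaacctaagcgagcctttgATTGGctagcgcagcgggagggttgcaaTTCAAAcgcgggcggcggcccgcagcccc
Ccnb2 held 3 CCAAT boxes, at positions -87, -54 and -21. Cdk1 held TTTGAA at positions -71 and -15. Ube2c, whose product loads ubiquitin for the anaphase-promoting complex, differed by 1.55 ± 0.27 between CD8 and CD4 KO cells.

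Genes of DNA replication were counted next. Of 22 MCM helicase and origin factors, 4 were higher and 0 lower, with a median of 0.50. Cdc6, which loads the helicase, read 6.45 and 6.54 in CD8 KO and 4.57 and 4.50 in CD4 KO cells (1.96 ± 0.38, adjusted p = 0.0169), the CD4 KO values being in the range of the genes of other organs. Mcm10 differed by 1.66 ± 0.37 (by 0.07 and not called on its other probe set), Mcm5 by 1.09 ± 0.23 and Mcm6 by 0.93 ± 0.15. Of 30 genes of polymerases, the replication fork and nucleotide synthesis, 3 were higher (Rrm2 of ribonucleotide reductase, 1.71 ± 0.35, and the polymerase genes Pole, 1.31 ± 0.27, and Pola1, 1.19 ± 0.24) and 0 lower, with a median of 0.59. Of 21 cyclins, kinases and E2F factors of G1 and S phase, 2 were higher (Ccne1, 1.29 ± 0.26, and the kinase inhibitor Cdkn2c, 1.15 ± 0.18) and 0 lower, with a median of -0.00 and 10 of 21 above 0. These counts changed when single arrays were left out. Among the MCM and origin factors 1 remained called without CD4 KO replicate 1 or CD8 KO replicate 2 and 0 without CD4 KO replicate 2 or CD8 KO replicate 1, and among the polymerase and nucleotide genes 1 without CD4 KO replicate 2 and 0 without any 1 of the other 3. Among the G1 and S phase genes 1 was called without either replicate 1 and 0 without either replicate 2. Without an array of CD8 WT 18 h or CD8 KO 18 h the counts of the last 2 lists rose to as many as 6 and 5.

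Of 71 genes of the respiratory chain and ATP synthase, 0 were called in the limma fit, the median was 0.13, and the differences ran from -0.25 to 0.87. The median was -0.02 without either replicate 2 and 0.26 without either replicate 1. Of 25 GABP-dependent genes that the study named on these samples, a choice that makes them no independent evidence, 2 were higher (Mcm5 and Nubp1) and 0 lower in CD8 KO cells, with a median of 0.35. This count was 1 without CD4 KO replicate 1, 0 without any 1 of the other 3 compared arrays, and 7 when 1 array of CD8 KO 18 h, either of them, was left out. Nubp1, of iron-sulfur cluster assembly, read 6.25 and 6.74 in CD8 KO and 5.50 and 4.84 in CD4 KO cells against 8.09 to 8.44 in the 4 WT arrays (1.33 ± 0.28, adjusted p = 0.0246, lost without CD4 KO replicate 2 or either CD8 KO array). Mtx2, of mitochondrial protein import, read 3.49 and 3.79 in CD8 KO and 5.20 and 4.70 in CD4 KO cells (-1.31 ± 0.32, adjusted p = 0.0542). Of 18 glycolysis genes, 1 was higher, the lactate carrier Slc16a1 (0.94 ± 0.17, adjusted p = 0.0094), a call lost without any 1 of the 4 compared arrays.

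Markers of other cells were examined beside these results. Among 16 B cell markers, Cd72 alone was called (2.21 ± 0.21, kept), a coreceptor that reads 9.84 and 9.73 in CD8 KO and 7.56 and 7.58 in CD4 KO cells. Cd79a lay between 3.70 and 4.15 in the 4 KO arrays, inside the range of the genes of other organs, and the list averaged 4.94 and 5.31 in CD8 KO and 5.23 and 4.93 in CD4 KO cells. Among 12 regulatory T cell markers 1 was higher (Itgae) and 3 lower (Tnfrsf4, Izumo1r and Gpr83), while Foxp3, the defining factor, read 4.35 and 4.13 in CD4 KO and 3.62 and 4.03 in CD8 KO cells. The median of this list was -0.99, and 2 of the 12 differences were above 0. The arrays did not overlap for 40.9% of all genes and for 10 of these markers. Without CD4 KO replicate 1 or 2 or CD8 KO replicate 1, 1 of these was lower. Of 10 NK receptors 1 was higher (Klrd1), and Ncr1, another of them, lay between 2.82 and 3.61. Of 21 myeloid and dendritic cell markers 0 were called by limma, and their mean was 4.06 and 4.71 in CD8 KO and 4.89 and 4.24 in CD4 KO cells. Without CD4 KO replicate 2, 2 of them were called lower, and the list's median of -0.09 became 0.08 and 0.18 without CD4 KO and CD8 KO replicate 1. S100a8, a neutrophil gene, read 5.10 in CD4 KO replicate 1 and 2.70 to 3.04 in the other 3 KO arrays. Of 8 thymocyte markers 1 was higher (Ccr9), and the recombinase gene Rag1 lay between 2.35 and 2.51. Of 29 immediate early genes 1 was higher, Ier3 (2.45 ± 0.42, lost without CD4 KO replicate 1 or CD8 KO replicate 1). The fit called 0 of 5 NKT and γδ T cell markers, 9 erythroid and platelet markers, 14 MHC class I genes, 25 interferon-stimulated genes, 31 p53 target, stress and apoptosis genes, 5 Gimap GTPases, 17 GABP subunits and Ets factors and 4 sex-linked genes. Mx1, an interferon-stimulated gene, read 9.93 and 8.99 in CD8 KO and 7.84 and 8.99 in CD4 KO cells, and its replicates differed by about as much as the lineages.

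Lineage differences in KO cells were then set beside those in WT cells, which come from other arrays. In WT cells, 80 genes (0.646%) were higher and 79 (0.637%) lower in CD8 cells. These counts were 61 and 40 without CD4 WT replicate 1, 33 and 49 without CD4 WT replicate 2, 36 and 28 without CD8 WT replicate 1, and 39 and 39 without CD8 WT replicate 2. At 0 h, CD4 WT replicate 1 read 7.56 for Cd8a and 8.52 for Cd8b1, against 5.13 and 7.52 in replicate 2. Its CD8 lineage genes averaged 6.90 against 6.02, and its excess of 3' over 5' signal was 1.58 against 0.48. The part of this in the WT differences and in the contrasts of KO and WT cells was not tested. Genes called in both genotypes numbered 114, that is 39.9% of the KO calls and 71.7% of the WT calls, and all 114 had the same direction (69 higher, 45 lower). Another 172 genes were called in KO cells alone, 128 higher and 44 lower, of which 165 had a WT difference of the same sign. Among genes called higher in KO cells, the median difference was 1.38 in KO and 0.75 in WT cells, and among genes called lower it was -1.35 and -1.06. The genes were chosen by their KO values, so these medians are a description. Across all genes, which are not independent replicates, the differences in KO and WT cells were correlated at 0.53.

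**Figure D4:**
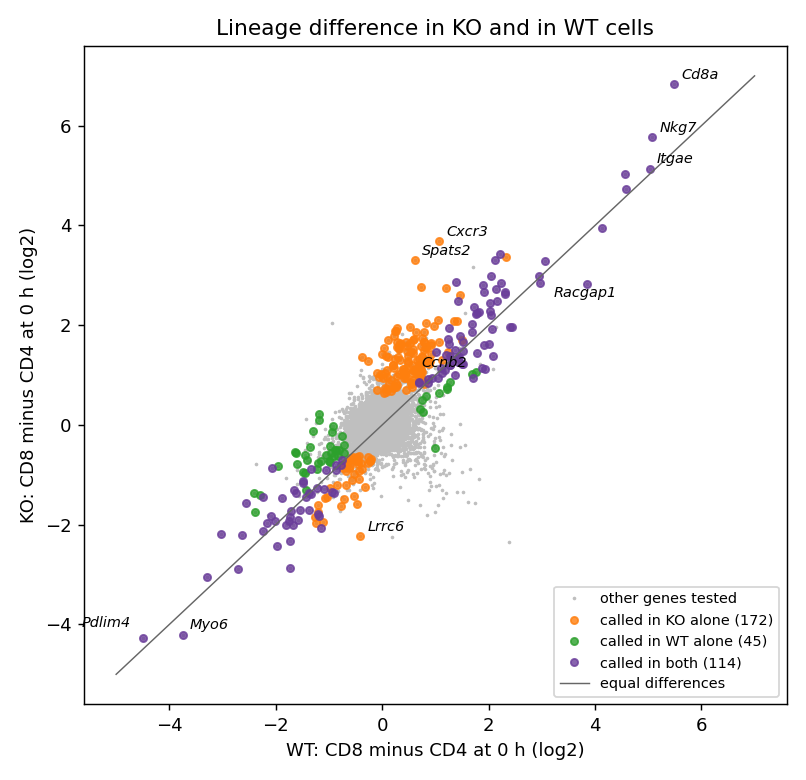
Difference of CD8 and CD4 cells at 0 h (log2) in WT (horizontal axis) and KO cells (vertical axis). Each point is a gene, grey where not called, purple where called in both genotypes (114), orange in KO alone (172) and green in WT alone (45), and the line marks equal differences. Itgae lies near the line at 5.03 and 5.14, and Spats2 far above it at 0.61 and 3.30. The WT values of Spats2 lay in the range of the genes of other organs.

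The test of the difference itself, KO minus WT, called 0 genes (0%) in the limma fit. At an unadjusted p under 0.05 there were 478 genes (3.86% of all), 90 of them among the 286 genes called in KO cells. Those 286 were chosen by the KO difference that also enters this test, so the 90 are no evidence about genotype. Of the 12 CD8 lineage genes 9 were called in WT cells, and of their 12 tests of the difference 1 had an unadjusted p under 0.05. The 9 include the sort markers Cd8a and Cd8b1. Itgae differed by 5.03 ± 0.39 in WT cells and Cd8b1 by 4.58 ± 0.65. On the CD4 side Pdlim4 differed by -4.50 ± 0.20 and Fasl by -3.28 ± 0.29 in WT cells. The following genes were picked for the small p of this test after their values were seen. Spats2, at 4.78 and 5.29 in CD8 WT and 4.77 and 4.08 in CD4 WT cells, had the smallest p of all (difference of KO and WT 2.69, unadjusted p = 3.42e-05, adjusted p = 0.424). All its WT values and both its CD4 KO values lay in the range of the genes of other organs. Cxcr3 read 7.63 and 7.34 in CD8 WT and 6.49 and 6.34 in CD4 WT cells, so that its KO arrays lay above WT in CD8 and below WT in CD4 cells (difference 2.61, adjusted p = 0.476). The transcription cofactor Hopx was higher by 2.87 ± 0.21 in KO and 1.39 ± 0.21 in WT cells, and Cdh1, E-cadherin, by 2.77 ± 0.30 and 0.74 ± 0.30. Stmn1, a regulator of microtubules in dividing cells, was higher by 1.37 ± 0.25 in KO cells and differed by -0.38 ± 0.25 in WT cells. None of these passed the adjusted test.

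Mitosis genes were compared in the same way. In WT cells 2 of 33 were called higher (Racgap1, 2.95 ± 0.19, and Kif23, 1.25 ± 0.22) and their median was 0.31, against 17 and 1.30 in KO cells. The KO difference was the larger for 31 of the 33, while it was for 62.3% of all genes. Of the 33 tests of KO against WT, 15 had an unadjusted p under 0.05, as had 3.86% of all genes, and 0 passed the adjustment over all genes. Of the 33 genes, 17 were called by the KO difference that also enters this test, and all 33 were measured on the same arrays. The list was also chosen with earlier results known, so the 15 are no independent evidence about genotype. Ccnb2 read 5.47 and 5.01 in CD8 WT and 4.63 and 4.92 in CD4 WT cells, and its difference of 0.47 ± 0.18 in WT cells compares with 1.59 in KO cells (unadjusted p = 0.000774). Cdk1 differed by 0.03 ± 0.28 in WT cells and by 1.54 ± 0.28 in KO cells (unadjusted p = 0.00248). Means of the list were 5.66 and 5.26 in CD8 WT and 5.07 and 5.07 in CD4 WT cells, so that both lineages of KO cells stood above their WT counterparts at 0 h. These WT means, the CD4 KO means (5.59 and 5.43) and the WT values of Ccnb2 lay below 5.79. That is the top of the range of the genes of other organs. Such low values may be background, so the WT differences may understate the true ones. The part of this in the contrast of KO and WT cells was not tested. The MCM and origin factors had a median of 0.09 in WT and 0.50 in KO cells, and the KO difference was the larger for 21 of 22.

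After 18 h of stimulation, 1130 genes (9.12%) were higher and 563 (4.54%) lower in CD8 than in CD4 KO cells. Of the 286 genes called at rest, 169 were also called at 18 h, 59.1% of the former and 9.98% of the 18 h calls, 158 of them in the same direction and 11 in the opposite direction. These come from other arrays, but each sort was divided between the time points. The change of the lineage difference between 0 h and 18 h, in which the resting arrays take part, was called for 525 genes (4.24%), 345 upward and 180 downward. With the sorted population as a random block the count was 997, and tested against a fold of 1.5 it was 38. Of the 286 genes called at rest 64 were among them, and 56 of these moved toward or past 0. Those 286 were chosen by the resting difference that also enters this change, so the 64 and the 56 are no evidence about stimulation. Cd8a (6.36) and Cd8b1 (4.29) kept about their resting difference at 18 h. Cxcr6 differed by 5.02 ± 0.71 at rest and by 1.24 ± 0.71 at 18 h, but this change was not called. Mcoln2, a lysosomal channel, read 7.03 and 7.36 in CD8 KO and 4.62 and 4.09 in CD4 KO cells at rest (2.84 ± 0.27, kept) and was lower in CD8 cells at 18 h (-1.79 ± 0.27). Its CD4 KO values at rest, like those of Cxcr6, lay in the range of the genes of other organs. Cst7 differed by -0.15 ± 0.28 at 18 h and Lgmn by 0.07 ± 0.24, both called at rest. Of the mitosis genes 25 of 33 were higher in CD8 KO cells at 18 h, with 0 lower and a median of 1.71. The array CD8 KO 18 h replicate 2 stood apart by its 3' to 5' difference of 3.76, and 490 changes were called without it. With replicate 1 of that group left out in its place there were 1181, without CD4 KO 18 h replicate 2 there were 142, and without any 1 of the resting KO arrays 205 to 302.

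**Figure D5:**
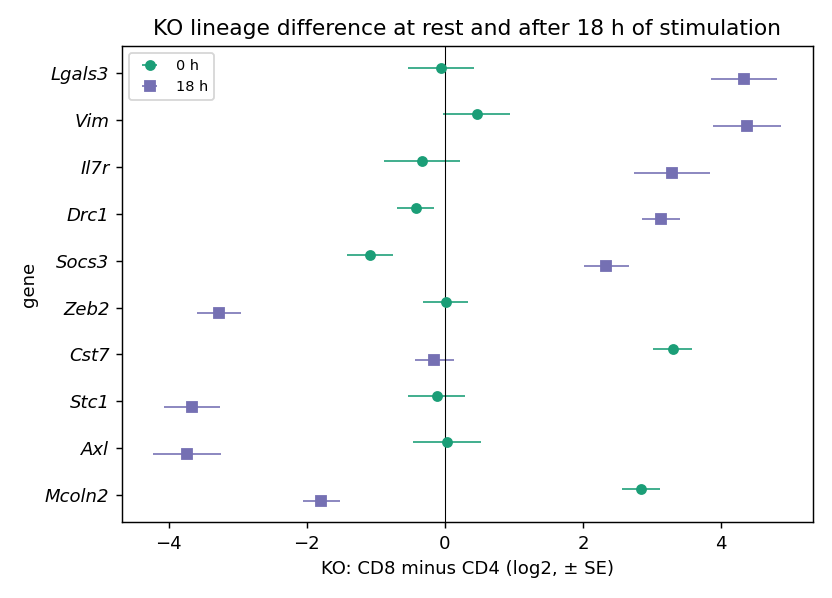
Difference of CD8 and CD4 KO cells (log2 ± SE, horizontal axis) at 0 h (circles) and after 18 h of stimulation (squares) for the 5 genes of largest called increase and the 5 of largest called decrease (vertical axis). Mcoln2 runs from 2.84 to -1.79 and Cst7 from 3.30 to -0.15, and the other 8 were not called at 0 h.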

How the data were processed

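The deposited values are log2 probe set values of 16 Affymetrix arrays, 2 in each of 8 groups, which the authors made from the scanned arrays with the R package affy after 2 rounds of RNA amplification. The summary method and the version were not given in the sources used here. Array medians ran from 5.24 to 5.43 and values from 1.62 to 14.45, and no further normalization was applied. Signal on arrays has no read depth, and the number of arrays limits the precision. Of 22690 probe sets, 20380 name 1 gene in the platform annotation, 691 several and 1619, controls included, none. Each of 12393 genes was represented by its probe set of highest average over all 16 arrays, also for the 4956 genes with more than 1, and 64 control probe sets were left out. A model with 8 group means was fitted with limma 3.58.1 in R 4.3.3 (8 residual degrees of freedom), p-values were two-sided and adjusted by Benjamini-Hochberg over all genes, and genes with an adjusted p under 0.05 and a fold over 1.5 were called. The steps were tested on simulated data. Samples were grouped by their titles.

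Genes were named by a rule: the lineage markers, Gabpa and Gabpb1, the 12 highest and 12 lowest differences among called genes, up to 4 called and 2 uncalled members of each list by size, and the 5 highest and 5 lowest called differences in the comparisons of genotype and of time. Of the 71 uncalled genes so named, only some are described. Other genes named, among them further list members, were chosen after their values were seen. The members and lists were chosen with earlier results of these data known. Alternatives were leaving out each array, blocks for replicate number or sorted population, other scalings, other choices of probe sets and arrays, array weights and a test against a fold of 1.5. Replicate numbers were checked as pairs: deviations from the group means correlated at 0.18 to 0.56 between groups of the same lineage and at -0.60 to -0.12 between lineages, so the numbers were not taken to pair CD4 with CD8 arrays. Promoter sequences are those of RefSeq on build GRCm38.p6, matched by gene symbol.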

Additional observations from a re-analysis of the deposited data

Results flagged for a closer look

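The lineage difference of 10 genes in KO cells differed between rest and 18 h of stimulation, by the test of that change in the limma fit. These are the 5 largest called changes in each direction, and the resting arrays take part in all of them. Among the decreases, Mcoln2, a lysosomal channel, changed by -4.64 ± 0.39 (SE, adjusted p = 0.000448), from 2.84 at 0 h to -1.79 at 18 h. The receptor kinase Axl changed by -3.76 ± 0.69 (from 0.03 to -3.73) and the secreted hormone Stc1 by -3.54 ± 0.58 (from -0.12 to -3.66). Cst7 changed by -3.45 ± 0.40 (from 3.30 to -0.15) and the repressor Zeb2 by -3.28 ± 0.45 (from 0.01 to -3.27). Mcoln2 and Cst7 were thus the only genes of these 10 called at rest.

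Among the increases, Lgals3, a galectin, changed by 4.39 ± 0.68 (from -0.06 to 4.33) and the filament protein Vim by 3.93 ± 0.70 (from 0.46 to 4.38). Il7r, the IL-7 receptor α chain, changed by 3.62 ± 0.78 (from -0.33 to 3.29), Drc1 by 3.55 ± 0.38 (from -0.42 to 3.13), and Socs3, an inhibitor of cytokine signals, by 3.42 ± 0.47 (from -1.08 to 2.34). All 10 were also called without CD8 KO 18 h replicate 2, the array with a 3' to 5' difference of 3.76. With the 3 arrays of largest excess of 3' signal left out, Axl (-2.69) and Vim (3.62) were not called. The part of RNA quality in these changes was not tested.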

How the results depend on the processing

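None of the 61 named genes called in KO cells at 0 h changed sign under any alternative, whereas 13 of the 71 uncalled ones did, and the medians of 9 of 33 lists crossed 0 when 1 array was left out. For the KO comparison at 0 h, 130 genes were higher once the 3 arrays of largest excess of 3' over 5' signal were left out, and tested against a fold of 1.5 there were 41 higher and 21 lower. For WT cells, the latter test gave 28 higher and 21 lower, the 3 arrays left out gave 50 lower, and genes above the median level alone gave 44 lower. For KO cells at 18 h, the test against a fold of 1.5 gave 298 higher and 91 lower, and array weights gave 661 and 280. The change with time was called for 38 genes against a fold of 1.5, 275 with array weights, 332 without the 3 arrays and 997 with the sorted population as a random block. Leaving out 1 array at a time gave 70 to 290 higher and 34 to 120 lower genes for KO cells at 0 h, 33 to 93 and 28 to 114 for WT cells, 561 to 1904 and 221 to 951 for KO cells at 18 h, 0 to 1 for KO against WT, and 142 to 1181 for the change with time. With the replicate block, 178 genes were higher and 78 lower in KO cells at 0 h and 488 changed with time. Replicate numbers of CD4 and CD8 KO arrays at 0 h ran against each other (correlation -0.44), and a block with the numbers crossed, added after seeing the data, gave 312 higher and 136 lower, 132 lower in WT cells, 2 for KO against WT and 1018 for the change with time. The causes of these shifts were not tested.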
